A study of Homo sapiens with 12 samples.

Results

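Lysosome and autophagy genes were followed by RNAseq in SKBR-3 cells, an established human breast carcinoma line with amplified HER2 that is classed as estrogen receptor (ER) negative. The set holds 48 of the 20531 genes in the deposited tables, and its members were listed by gene symbol. The rule held no measured value, but the members were chosen with earlier results of these data known. By role these are 7 proteases, 11 glycosidases, 3 sulfatases, 3 lipid hydrolases, 2 soluble activators or carriers, 6 membrane proteins, 6 proton pump subunits, 7 autophagy genes and the 3 transcription factors TFEB, TFE3 and MITF. Cells received a pool of non-targeting (NT) siRNA or a pool of siRNA against FOXA1, a forkhead transcription factor, and afterwards DMSO, the solvent, or 300 nM lapatinib, which blocks the kinase activity of HER2 and EGFR. The drug or solvent was left on for 24 h, and the 4 groups had 3 samples each: each siRNA with DMSO and each with lapatinib. All cells, the controls included, were thus transfected with siRNA, for 48 h before the drug by the labels and for 24 h by the methods. The groups are cultures of a single line with a single siRNA pool, drug dose and time. The sources do not say whether replicates were separate cultures, so p-values measure the spread between these samples, which may be technical. In RNA from whole cultures, a change in the number of cells that express a gene and a change per cell cannot be told apart.

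Lysosomes are acidic organelles that degrade proteins, glycans and lipids brought in by endocytosis and by autophagy, the process in which a cell encloses its own contents in a membrane and delivers them to the lysosome. The V-ATPase pumps protons into the organelle, soluble hydrolases work at the acid pH this creates, and glycosylated membrane proteins shield and equip the membrane. TFEB, TFE3 and MITF are related transcription factors that bind E-boxes in the promoters of many of these genes. The kinase mTORC1, which lies downstream of HER2, PI3K and AKT, phosphorylates TFEB and TFE3 and holds them in the cytoplasm, so the activity of these factors can change without a change in their mRNA.

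The expected counts, which are estimated read counts per gene, summed to between 25749578 and 32271850 per library (median 30542429). Values below are normalized counts, the counts divided by scaled library size and multiplied by the average library size, and are means ± SD (n = 3) unless single samples are listed. FOXA1 lay between 8307 and 13170 in the 6 samples with NT siRNA and between 1160 and 2383 in the 6 with FOXA1 siRNA, so the target was lower in every sample labelled as depleted. The markers of the line were present, with ERBB2 between 197200 and 458300 and KRT8 between 76980 and 113100, whereas PTPRC, which marks leukocytes, reached at most 5.17 and the hormone receptor PGR at most 1.19. ESR1, which encodes ER, was low but not at 0, and lapatinib raised it with NT siRNA from 14.7 ± 1.55 to 34.1 ± 8.11 (edgeR adjusted p = 0.00486). Of the 5 leukocyte and macrophage markers, CSF1R was at 182 to 531 and each of the other 4 at most 20.5. In each group replicate 2 stood apart, with a chi-square per degree of freedom of 12.1 to 17.6 against the other replicates and of 3.62 to 5.68 between those, so the effect of leaving out single samples is given with the results. Each of the 48 genes reached 10 counts in at least 1 sample of every comparison and was tested.

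With NT siRNA and DMSO, the members spanned 3 orders of magnitude in TPM, a level per transcript length that allows genes to be compared. The aspartic protease CTSD (cathepsin D) was the highest at 2500 ± 239 TPM (SD, n = 3), followed by PSAP, the precursor of the saposins that help to degrade sphingolipids, at 1243 ± 54.5 TPM and by the carboxypeptidase CTSA at 412 ± 13.7 TPM. The median member had 51.0 TPM, 12 members lay above 100 TPM and 5 below 10 TPM. These 5 were TFEB at 8.62 ± 1.62 TPM, NAGLU at 6.18 ± 0.344 TPM, MITF at 2.94 ± 0.13 TPM, CTSS at 1.57 ± 0.312 TPM and GALC at 1.33 ± 0.269 TPM. Of the 47 pairs of neighbours in this order, 32 had overlapping ranges over the 3 samples, and every neighbouring pair from ATP6V1B2 at 55.2 ± 3.44 TPM down to ATP6V0A1 at 26.6 ± 1.4 TPM did so, which leaves the order in the middle loose. CTSD, PSAP, CTSA and CD63 at the top were each separate from their neighbours.

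**Figure D1:**
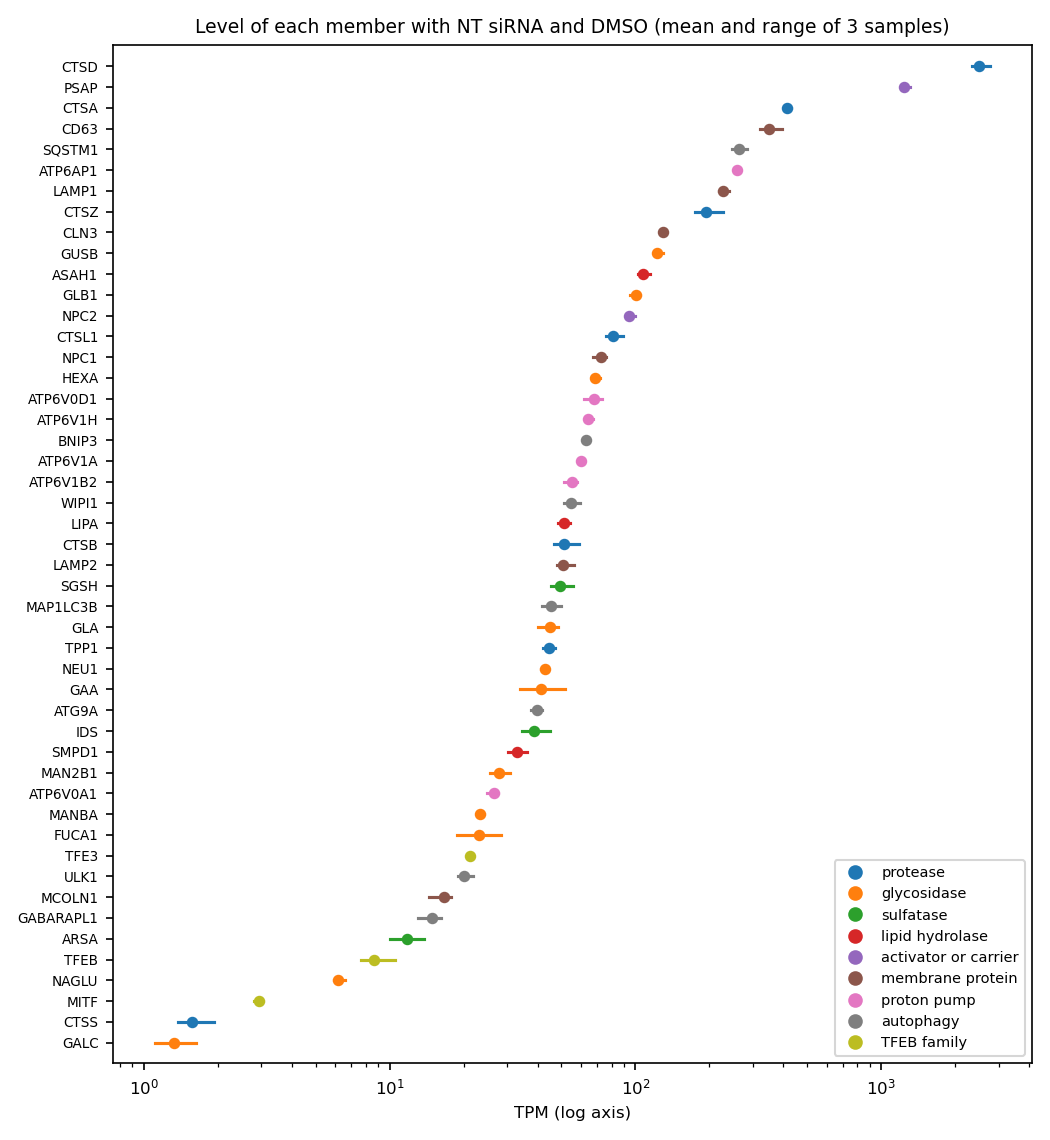
Level of each of the 48 members in TPM (log axis) with NT siRNA and DMSO, as the mean (point) and range (line) of 3 samples, colored by role. CTSD at 2500 TPM and PSAP at 1243 TPM stand above all other members, and CTSS and GALC lie at the bottom, below 2 TPM.

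Together the members took 0.786% ± 0.04 of all listed TPM with NT siRNA and DMSO, and 1.13% ± 0.011 once lapatinib was added. After FOXA1 siRNA they took 0.965% ± 0.026 in DMSO and 1.23% ± 0.0047 in lapatinib. The samples of the 4 groups did not overlap in this share. Without CTSD and PSAP, which held more than the other 46 members together, the share was 0.385% ± 0.012 and 0.494% ± 0.0089 with NT siRNA, and 0.419% ± 0.005 and 0.494% ± 0.0061 with FOXA1 siRNA, in DMSO and lapatinib respectively. By role, proteases went from 0.352% ± 0.027 to 0.51% ± 0.0087 with lapatinib under NT siRNA, and autophagy genes from 0.0537% ± 0.0028 to 0.0893% ± 0.0051. The pump subunits took 0.0572% ± 0.0016 and 0.0636% ± 0.0035, and the membrane proteins 0.0907% ± 0.0043 and 0.0943% ± 0.0038. These shares are descriptions, with no test.

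The promoters of these genes are a place where TFEB family factors are known to bind, and the windows below show how differently such promoters can be equipped. RefSeq promoter windows of 300 bases (GRCh38.p14) ran from 250 bases before to 50 bases after a listed start of the gene. Each gene had 1 window, so other starts of the same gene were not examined. Such windows covered 35 of the 48 members. The other 13, CTSB, CTSS, HEXA, MANBA, NAGLU, SGSH, ARSA, ASAH1, PSAP, LAMP2, ATP6V1A, ATP6V1B2 and ATP6V1H, were not analysed here for promoter sequence. The E-box CACGTG, which reads the same on both strands, occurred in 10 of the 35 windows (28.6%) and in 2030 of all 27305 promoter windows (7.43%). The longer TCACGTGA, which contains the E-box and is the core of the element bound by TFEB, occurred in 6 of 35 (17.1%) and in 1.04% of all windows, and the extended CLEAR element, which contains both, in 2 of 35 (5.71%) and in 0.381%. The forkhead motif GTAAACA, or TGTTTAC on the other strand, occurred in 1 of the 35, that of CTSL1 (2.86%), and in 3.41% of all windows. In 125 windows of other lysosome, autophagy and nutrient sensing genes, listed below, the E-box occurred in 22 (17.6%) and TCACGTGA in 10 (8.0%). The extended CLEAR element occurred in 6 of these 125 (4.8%) and the forkhead motif in 4 (3.2%). A match of letters is a description and not evidence of binding. Windows of 4 members are printed 5′ to 3′ with each E-box in capitals. They were picked because CTSA and GAA rose with lapatinib, LAMP1 rose with FOXA1 siRNA and MCOLN1 did not rise with lapatinib, although all hold at least 2 E-boxes.
CTSA (chr20:45891085-45891384, plus strand): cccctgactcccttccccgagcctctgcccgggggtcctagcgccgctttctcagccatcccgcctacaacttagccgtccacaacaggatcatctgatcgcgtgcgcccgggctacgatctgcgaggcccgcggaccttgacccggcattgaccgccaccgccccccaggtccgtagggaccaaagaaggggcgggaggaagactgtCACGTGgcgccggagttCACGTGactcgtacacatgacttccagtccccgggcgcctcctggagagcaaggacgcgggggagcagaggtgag
GAA (chr17:80101331-80101630, plus strand): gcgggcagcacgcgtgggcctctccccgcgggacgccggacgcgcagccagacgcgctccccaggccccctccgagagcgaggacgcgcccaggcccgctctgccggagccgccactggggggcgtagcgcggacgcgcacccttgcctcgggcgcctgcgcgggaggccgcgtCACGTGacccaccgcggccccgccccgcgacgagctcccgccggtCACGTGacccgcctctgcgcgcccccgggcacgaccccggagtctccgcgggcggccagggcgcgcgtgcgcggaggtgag
LAMP1 (chr13:113296989-113297288, plus strand): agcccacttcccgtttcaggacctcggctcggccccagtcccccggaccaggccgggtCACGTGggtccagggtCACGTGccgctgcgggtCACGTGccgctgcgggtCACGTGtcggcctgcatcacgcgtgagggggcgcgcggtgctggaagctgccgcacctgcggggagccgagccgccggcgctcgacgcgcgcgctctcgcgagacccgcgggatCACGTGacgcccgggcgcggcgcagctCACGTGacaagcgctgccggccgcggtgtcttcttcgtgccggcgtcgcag
MCOLN1 (chr19:7522374-7522673, plus strand): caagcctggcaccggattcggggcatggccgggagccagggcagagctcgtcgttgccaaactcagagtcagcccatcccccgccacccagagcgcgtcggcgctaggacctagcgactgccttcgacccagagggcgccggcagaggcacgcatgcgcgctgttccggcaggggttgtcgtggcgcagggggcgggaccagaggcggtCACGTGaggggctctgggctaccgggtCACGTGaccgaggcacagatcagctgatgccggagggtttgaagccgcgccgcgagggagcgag

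In LAMP1, the 6 E-boxes began 192, 176, 159, 142, 28 and 1 bases before the start, the first 4 of them in a row of similar spacing. CTSA had E-boxes 42 and 25 bases before the start, GAA 76 and 31 bases before it, and MCOLN1 41 and 14 bases before it. Both E-boxes of GAA lay within an extended CLEAR element, as did the E-box of MCOLN1 nearer to its start. The other 6 members with an E-box were CLN3 with 2, and CTSD, NEU1, CD63, ATP6V0D1 and BNIP3 with 1 each.

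The first comparison asks how these genes differed between lapatinib and DMSO in cells with NT siRNA. With NT siRNA, lapatinib raised 37 of the 48 members (77.1%) and lowered 1 (2.08%), while over all 13713 genes tested it raised 30.5% and lowered 29.2%. Adjusted p values are Benjamini-Hochberg values of edgeR's quasi-likelihood test over all genes tested, and a member counts as raised or lowered when this is under 0.05. The median log2 fold change of the members was 0.39, against 0.03 over all genes, and 5 members rose and 1 fell by at least 1 on the log2 scale, against 6.64% and 7.13% of all genes. Among the members, hydrolases and autophagy genes made up most of the increase, with 21 of 24 hydrolases and 7 of 7 autophagy genes raised. By comparison, 3 of 6 membrane proteins, 3 of 6 pump subunits and 1 of 3 TFEB family members were raised. This contrast did not extend to the lists of other hydrolases and other autophagy genes described below. There 12 of 28 hydrolases and 15 of 32 autophagy genes were raised, next to 8 of 17 pump subunits and 9 of 18 membrane proteins. The list of autophagy receptors and fusion factors, with 10 of 13 raised, did keep a high share. Leaving out 1 sample at a time gave 30 to 35 raised members, 29 of which passed in every such fit. The count of lowered members was 3 without NT siRNA DMSO replicate 2, 3 without NT siRNA lapatinib replicate 2 and 2 without NT siRNA lapatinib replicate 3. With the replicate number as a block it was 4 while 37 were raised, against 32.8% and 34.5% of all genes, and CTSZ, CD63 and ATP6V0D1 joined GLA. Of the 4 fibroblast markers only COL1A1 reached 10 counts in any sample, and it fell in the same comparison (edgeR adjusted p = 0.00278). The sum of the 4 was 475 to 527 in DMSO and 273 to 379 in lapatinib, nearly all of it COL1A1. The 5 leukocyte and macrophage markers summed to 230 to 391 and 191 to 279. The part of these markers in the result was not tested.

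**Figure D2:**
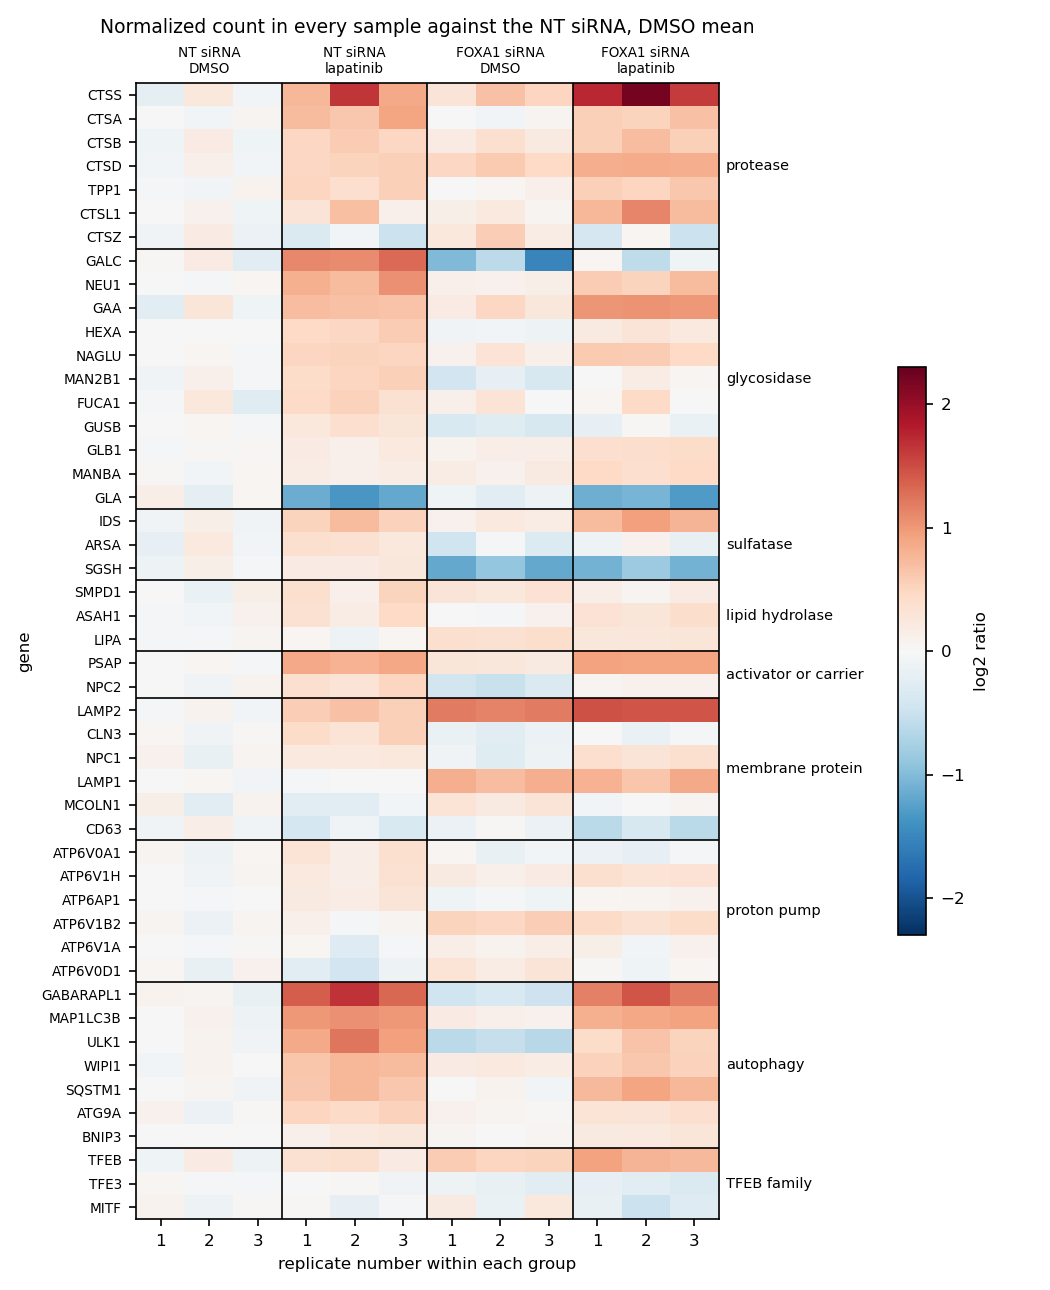
Log2 ratio of the normalized count in each of the 12 samples (columns, by group and replicate) to the mean of the 3 samples with NT siRNA and DMSO, for the 48 members (rows) ordered by role. The lapatinib columns are red for the autophagy genes with both siRNAs and for most hydrolases with NT siRNA. With FOXA1 siRNA and lapatinib, the means of SGSH, GALC, GUSB, ARSA and CTSZ lie below the NT siRNA, DMSO mean. GLA is blue in all 6 lapatinib samples, and LAMP1 and LAMP2 are red in all 6 samples with FOXA1 siRNA.

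Autophagy genes showed the largest increases as a group, with a median log2 fold change of 0.73 and a range of 0.22 to 1.49. GABARAPL1, a ubiquitin-like protein of the ATG8 family that is attached to autophagosome membranes, was at 446, 438 and 374 in DMSO and at 1102, 1322 and 1052 in lapatinib. The lowest lapatinib sample lay above the highest DMSO sample more than 2-fold, and the log2 fold change was 1.49 ± 0.11 (SE, edgeR adjusted p = 1.44e-05). MAP1LC3B (LC3B), another member of that family, was at 1655, 1751 and 1507 in DMSO and 3273, 3393 and 3260 in lapatinib, a log2 fold change of 1.04 ± 0.07 (edgeR adjusted p = 8.18e-06). ULK1, the kinase that starts autophagosome formation, was at 1676, 1789 and 1604 against 3088, 3953 and 3259, also a log2 fold change of 1.04, with an SE of 0.1. No lapatinib sample overlapped a DMSO sample for any of these 3 genes. GABARAPL1, MAP1LC3B and BNIP3 have near-identical gene copies or pseudogenes, and how the counting divided reads between copies is not given in the sources used here. WIPI1, which binds the growing autophagosome membrane, rose by 0.73 ± 0.06 on the log2 scale, the cargo receptor SQSTM1 (p62) by 0.69 ± 0.06, the lipid scramblase ATG9A by 0.51 ± 0.06 and the mitophagy receptor BNIP3 by 0.22 ± 0.06. For BNIP3 the edgeR adjusted p was 0.0101, and 0.0613 without NT siRNA DMSO replicate 3.

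Among the 7 proteases, 6 rose. CTSS (cathepsin S), which is typical of antigen-presenting cells, was at 49.2, 67.4 and 54.6 in DMSO and 97.5, 179 and 105 in lapatinib (log2 fold change 1.18 ± 0.26, edgeR adjusted p = 0.00503). The groups did not overlap, but replicate 2 was well above the other lapatinib samples, and the gene stayed among the 3 lowest members in TPM. CTSA, which protects the sialidase NEU1 and the galactosidase GLB1 in a complex, was at 11890, 11200 and 12230 in DMSO and at 19490, 18050 and 22080 in lapatinib, a rise of 0.78 ± 0.08 on the log2 scale (edgeR adjusted p = 5.13e-05). For the abundant CTSD, the samples were at 80280, 90450 and 79680 in DMSO and at 116400, 118900 and 121400 in lapatinib, with no overlap and a log2 fold change of 0.53 ± 0.06. The cysteine protease CTSB rose by 0.53 ± 0.09, the tripeptidyl peptidase TPP1 by 0.5 ± 0.06 and CTSL1 (cathepsin L) by 0.41 ± 0.13. CTSL1 lost its call without NT siRNA DMSO replicate 1 (edgeR adjusted p = 0.0694) and without NT siRNA DMSO replicate 3 (edgeR adjusted p = 0.102). CTSZ, an exopeptidase, was at 4425 ± 557 in DMSO and 3621 ± 570 in lapatinib and did not pass the test (edgeR adjusted p = 0.0949, and 0.000685 with the replicate block).

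Of the 11 glycosidases, 10 rose and 1 fell. GALC, which removes galactose from galactosylceramide, was at 77.8, 87.2 and 64.2 in DMSO and at 165, 163 and 189 in lapatinib, a log2 fold change of 1.19 ± 0.16 (edgeR adjusted p = 0.000301). NEU1, the lysosomal sialidase, was at 1383, 1369 and 1449 in DMSO and at 2469, 2316 and 2887 in lapatinib (log2 fold change 0.89 ± 0.08, edgeR adjusted p = 4.69e-05). GLA, the alpha-galactosidase that clears globosides, went the other way: it was at 1037, 809 and 960 in DMSO and at 422, 370 and 415 in lapatinib. Each lapatinib sample of GLA was below each DMSO sample, and the log2 fold change was -1.20 ± 0.11 (edgeR adjusted p = 3.27e-05), a 2.29-fold decrease. The other glycosidases rose by less: GAA, which degrades glycogen, by 0.71 ± 0.12 on the log2 scale, the beta-hexosaminidase subunit HEXA by 0.53 ± 0.05, NAGLU, which acts on heparan sulfate, by 0.52 ± 0.09, and the alpha-mannosidase MAN2B1 by 0.51 ± 0.07. The fucosidase FUCA1 rose by 0.46 ± 0.13, the glucuronidase GUSB by 0.33 ± 0.05, the beta-galactosidase GLB1 by 0.2 ± 0.05 and the beta-mannosidase MANBA by 0.17 ± 0.06. The calls of the last 2 were weak. MANBA passed in 1 of 6 leave-one-out fits, with an edgeR adjusted p of up to 0.106 (without NT siRNA DMSO replicate 2), and GLB1 in 5 of 6, with 0.0531 without NT siRNA DMSO replicate 1.

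All 3 sulfatases rose. IDS (iduronate 2-sulfatase) was at 2616, 3040 and 2606 in DMSO and at 3932, 4535 and 4000 in lapatinib (log2 fold change 0.61 ± 0.08, edgeR adjusted p = 0.000332), with no overlap. ARSA, which desulfates sulfatide, rose by 0.34 ± 0.12 and SGSH, which removes sulfate from heparan sulfate, by 0.24 ± 0.08, both on the log2 scale. Neither call was firm, since ARSA passed in 1 and SGSH in 2 of 6 leave-one-out fits, with an edgeR adjusted p of up to 0.132 and 0.0949 without NT siRNA DMSO replicate 1. For the lipid hydrolases, ASAH1 (acid ceramidase) rose by 0.35 ± 0.08 (edgeR adjusted p = 0.0045) and SMPD1 (acid sphingomyelinase) by 0.37 ± 0.11. SMPD1 samples overlapped between the groups, with 1276, 1136 and 1398 in DMSO and 1639, 1377 and 1822 in lapatinib, and the call (edgeR adjusted p = 0.0214) passed in 2 of 6 leave-one-out fits, with 0.079 without NT siRNA lapatinib replicate 3. LIPA, the acid lipase, was at 1934 ± 82.5 and 1920 ± 121. PSAP was at 51360, 52540 and 49540 in DMSO and at 93490, 89430 and 94380 in lapatinib, and this increase of 0.88 ± 0.05 on the log2 scale (edgeR adjusted p = 3.71e-06) had the smallest p of the 48 members. NPC2, which carries cholesterol inside the lysosome, rose by 0.42 ± 0.07 (edgeR adjusted p = 0.00108).

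The membrane proteins and pump subunits among the members moved less, with median log2 fold changes of 0.14 and 0.16. LAMP2, a major glycoprotein of the lysosomal membrane that also acts in chaperone-mediated autophagy, was at 3681, 4005 and 3618 in DMSO and at 5551, 6002 and 5497 in lapatinib (log2 fold change 0.61 ± 0.06, edgeR adjusted p = 6.44e-05). LAMP1, its close relative, was at 9229, 9428 and 8814 in DMSO and at 8947, 9239 and 9185 in lapatinib, and with a log2 fold change of 0.02 ± 0.05 the groups overlapped fully. CLN3, whose loss causes Batten disease, rose by 0.45 ± 0.07 and NPC1, the cholesterol exporter, by 0.26 ± 0.07. The calcium channel MCOLN1 (539 ± 73.2 and 475 ± 32.8, edgeR adjusted p = 0.245) and the tetraspanin CD63 (4650 ± 448 and 3850 ± 468, edgeR adjusted p = 0.0568) did not pass. With the replicate block CD63 passed, at an edgeR adjusted p of 0.00064. In the pump, the membrane subunit ATP6V0A1 rose by 0.3 ± 0.08, the regulatory subunit ATP6V1H by 0.27 ± 0.07 and the accessory protein ATP6AP1 by 0.25 ± 0.05 (edgeR adjusted p = 0.0023). The catalytic subunit ATP6V1A (4407 ± 119 and 4140 ± 494) and its partner ATP6V1B2 (2679 ± 220 and 2762 ± 147) did not pass, nor did ATP6V0D1, which joins the 2 sectors of the pump, at 1768 ± 175 and 1478 ± 170 (edgeR adjusted p = 0.0717, and 0.00284 with the replicate block).

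Of the 10 members with an E-box in the promoter window, lapatinib with NT siRNA raised 6 and lowered none, with a median log2 fold change of 0.34. Of the 25 members whose window held no E-box, it raised 20 and lowered 1, with a median of 0.41. Over all genes tested it raised 30.5% and lowered 29.2%, with a median of 0.03. The members with E-boxes thus ranged from NEU1 at 0.89 and CTSA at 0.78 down to MCOLN1 at -0.16 and CD63 at -0.25, and LAMP1, with the most E-boxes, was at 0.02. For lapatinib with FOXA1 siRNA the medians were 0.16 with an E-box and 0.3 without. For FOXA1 siRNA against NT siRNA the order was the other way, with medians of 0.2 and 0.07 in DMSO and of 0.11 and -0.17 in lapatinib. No test was made of these differences.

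**Figure D3:**
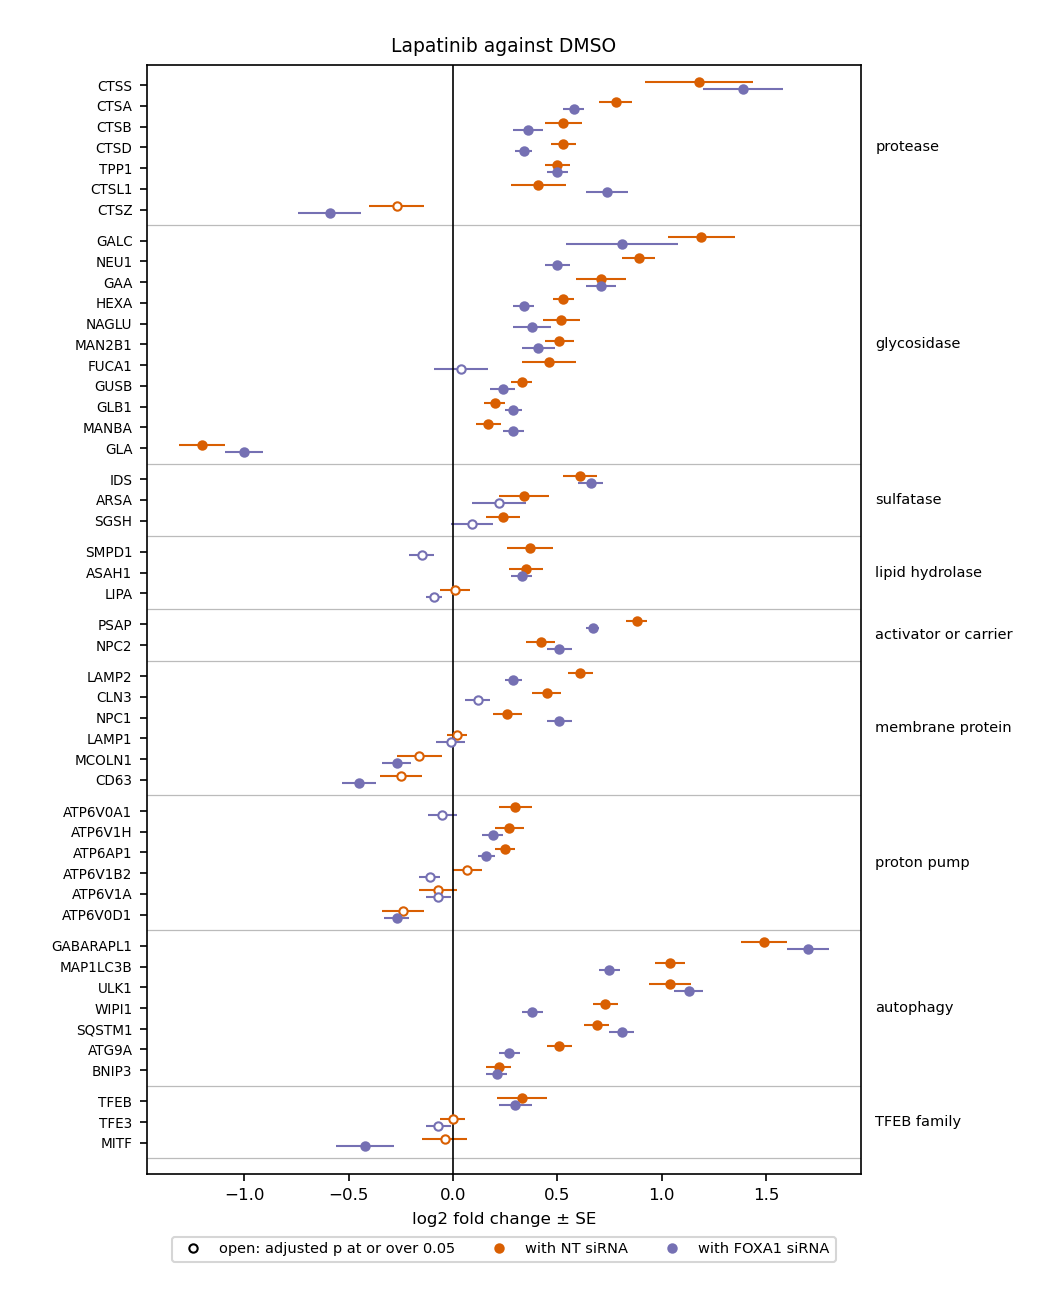
Log2 fold change of lapatinib against DMSO (± SE, 3 samples against 3) for each member by role, with NT siRNA (orange) and with FOXA1 siRNA (purple). Open points did not reach an adjusted p under 0.05. Both points of all 7 autophagy genes lie to the right of 0, GABARAPL1 is the farthest at 1.49 and 1.70, and GLA lies at -1.20 and -1.0.

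The same drug was then compared in cells with FOXA1 siRNA. There lapatinib raised 31 members (64.6%) and lowered 6 (12.5%), while it raised 29.0% and lowered 29.1% of the 13745 genes tested. The median log2 fold change was 0.29, against 0.01 over all genes, and 17 of 24 hydrolases and again 7 of 7 autophagy genes rose. In the lists described below the shares were lower here too. There 13 of 28 other hydrolases rose (46.4%) and 5 fell, and 14 of 32 other autophagy genes rose (43.8%) and 7 fell. All 31 raised members were raised with NT siRNA as well, and GLA was lowered with both siRNAs. ARSA, ATP6V0A1, CLN3, FUCA1, SGSH and SMPD1 were raised with NT siRNA and not called with FOXA1 siRNA, a difference of calls that is not by itself a difference of responses. With the replicate block, CLN3 and ARSA passed as raised here too (edgeR adjusted p = 0.00709 and 0.0377) and SMPD1 as lowered (edgeR adjusted p = 0.0084). Leaving out 1 sample at a time gave 30 to 32 raised and 5 to 7 lowered members. By at least 1 on the log2 scale 3 members rose and none fell, against 4.93% and 5.12% of all genes, and with the replicate block 33 rose and 9 fell, against 34.5% and 34.1%.

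With FOXA1 siRNA, GABARAPL1 was at 305, 329 and 300 in DMSO and at 935, 1137 and 950 in lapatinib, a log2 fold change of 1.70 ± 0.1 (edgeR adjusted p = 5.38e-06). ULK1 was at 1104, 1177 and 1080 in DMSO and at 2260, 2659 and 2410 in lapatinib (log2 fold change 1.13 ± 0.07, edgeR adjusted p = 8.09e-06). Both genes started from a lower level in DMSO than with NT siRNA and were separated by drug in every sample. CTSS rose by 1.39 ± 0.19, CTSL1 by 0.74 ± 0.1, GAA by 0.71 ± 0.07, PSAP by 0.67 ± 0.03, IDS by 0.66 ± 0.06, NPC1 and NPC2 by 0.51 ± 0.06 each, ASAH1 by 0.33 ± 0.05, LAMP2 by 0.29 ± 0.04, ATP6V1H by 0.19 ± 0.05 and ATP6AP1 by 0.16 ± 0.04, all on the log2 scale. The rise of GALC by 0.81 ± 0.27 rested on 26.6 to 78.5 normalized counts per sample and passed in 2 of 6 leave-one-out fits (edgeR adjusted p = 0.0289, and 0.097 without FOXA1 siRNA lapatinib replicate 1). Besides GLA, at 869, 785 and 866 in DMSO and at 432, 446 and 379 in lapatinib, 5 members fell. They were CTSZ by 0.59 ± 0.15, CD63 by 0.45 ± 0.08, MITF by 0.42 ± 0.14, MCOLN1 by 0.27 ± 0.07 and ATP6V0D1 by 0.27 ± 0.06 on the log2 scale.

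Whether the lapatinib response itself depended on the siRNA was tested as an interaction over all 12 samples. For 4 of the 48 members (8.33%) the response was lower with FOXA1 siRNA and for none was it higher, while it was lower for 3.2% and higher for 3.99% of the 14012 genes tested. LAMP2 rose by 0.61 with NT siRNA and by 0.29 with FOXA1 siRNA, a difference of -0.31 ± 0.07 (edgeR adjusted p = 0.017) that passed in all 12 leave-one-out fits. WIPI1 rose by 0.73 and 0.38, a difference of -0.34 ± 0.07 (edgeR adjusted p = 0.0176), and PSAP by 0.88 and 0.67, a difference of -0.19 ± 0.05 (edgeR adjusted p = 0.0397). SMPD1 was at 0.37 with NT siRNA and at -0.15, not called, with FOXA1 siRNA (difference -0.50 ± 0.14, edgeR adjusted p = 0.046). Most of these calls were not firm when single samples were left out, in fits without the replicate block. Without 1 sample, between 1 and 7 members were called lower, the count being 1 without NT siRNA DMSO replicate 1 or FOXA1 siRNA lapatinib replicate 1 and 7 without NT siRNA lapatinib replicate 2. It was 2 without NT siRNA lapatinib replicate 1 or 3, without any replicate of FOXA1 siRNA with DMSO, or without FOXA1 siRNA lapatinib replicate 2, and without NT siRNA DMSO replicate 2 NPC1 was called higher. WIPI1 missed the threshold without NT siRNA DMSO replicate 1 (edgeR adjusted p = 0.0508) and without FOXA1 siRNA lapatinib replicate 1, and PSAP and SMPD1 passed in 2 of 12 such fits each. The replicate block gave 16 lower and 3 higher members, against 9.22% and 11.1% of all genes in that fit. All 4 members above were among the lower ones. Their edgeR adjusted p with the block was 0.00235 for LAMP2, 0.00077 for WIPI1, 0.0104 for PSAP and 0.00099 for SMPD1. Neither fit resolved a difference for GABARAPL1 (0.23 ± 0.15) or ULK1 (0.10 ± 0.13).

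The next comparison asks what FOXA1 depletion did without the drug. In DMSO, FOXA1 siRNA raised 17 members (35.4%) and lowered 9 (18.8%), while it raised 21.9% and lowered 21.3% of the 13694 genes tested. The median log2 fold change was 0.14, against -0.01 over all genes. By at least 1 on the log2 scale 1 member rose and 1 fell, against 4.06% and 2.77% of all genes, and with the replicate block 25 rose and 11 fell, against 30.3% and 30.2%. By role, 4 of 6 pump subunits, 3 of 6 membrane proteins and 3 of 7 proteases rose, and none of the proteases or pump subunits fell. Among autophagy genes 1 rose and 2 fell, and among glycosidases 2 rose and 3 fell. In the list of other pump subunits described below, 4 of 17 rose (23.5%) and 3 fell (17.6%), near the shares over all genes. Of other membrane proteins 9 of 18 rose and 1 fell, and of other hydrolases 7 of 28 rose and 9 fell. Of other autophagy genes 11 of 32 rose and 6 fell. The number of members raised fell to 10 without NT siRNA DMSO replicate 1 and to 11 without NT siRNA DMSO replicate 3. It fell to 9 without FOXA1 siRNA DMSO replicate 1 and to 8 without FOXA1 siRNA DMSO replicate 3, and 7 raised members passed in every such fit. In these fits, which had no replicate block, the counts by role rested on single samples. Without FOXA1 siRNA DMSO replicate 1, ATP6V0D1, ATP6V1A and ATP6V1H lost their calls (edgeR adjusted p of 0.0718 to 0.095), which left 1 of 6 pump subunits. In the same fit CTSB and CTSZ lost theirs (edgeR adjusted p of 0.0693 and 0.0673), which left 1 of 7 proteases. Without FOXA1 siRNA DMSO replicate 3 the same 3 pump subunits lost their calls, and without NT siRNA DMSO replicate 1 both proteases did. With the replicate block and no sample left out, all of these passed as raised. Their edgeR adjusted p was then 0.000204 for ATP6V0D1, 0.00167 for ATP6V1A, 0.00165 for ATP6V1H, 0.000154 for CTSB and 4.09e-06 for CTSZ. The macrophage marker CSF1R moved in the same comparison, from 291 ± 75 to 480 ± 60.6 (edgeR adjusted p = 0.0146), and the sum of the 5 leukocyte and macrophage markers was 230 to 391 with NT siRNA and 417 to 558 with FOXA1 siRNA. The other 4 of these markers stayed near 0, with PTPRC at most 3.72, LYZ at most 1.998, ITGAM at most 11.8 and CD14 at most 20.5 in these 6 samples.

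LAMP2 and LAMP1 rose most. LAMP2 was at 3681, 4005 and 3618 with NT siRNA and at 8575, 8293 and 8637 with FOXA1 siRNA, a log2 fold change of 1.19 ± 0.05 (edgeR adjusted p = 6.89e-06). LAMP1 was at 9229, 9428 and 8814 with NT siRNA and at 16270, 15000 and 16390 with FOXA1 siRNA (log2 fold change 0.81 ± 0.05, edgeR adjusted p = 1.87e-05). Both groups of samples were far apart for each gene. CTSD went from 83470 ± 6051 to 118800 ± 6252, a log2 fold change of 0.52 ± 0.06 (edgeR adjusted p = 0.000477), and the pump subunit ATP6V1B2 from 2679 ± 220 to 3840 ± 120, one of 0.53 ± 0.06 (edgeR adjusted p = 0.000361). Smaller increases on the log2 scale were seen for LIPA (0.39 ± 0.05), CTSZ (0.36 ± 0.12, with overlapping samples), SMPD1 (0.31 ± 0.08), MCOLN1 (0.29 ± 0.1), ATP6V0D1 (0.28 ± 0.08), CTSB (0.27 ± 0.09), PSAP (0.26 ± 0.04), WIPI1 (0.2 ± 0.06), ATP6V1H (0.18 ± 0.05), MANBA (0.17 ± 0.05), GLB1 (0.14 ± 0.05) and ATP6V1A (0.14 ± 0.04).

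SGSH was the member that fell most with FOXA1 siRNA. It was at 2229, 2671 and 2383 with NT siRNA and at 1077, 1304 and 1071 with FOXA1 siRNA, with no overlap and a log2 fold change of -1.06 ± 0.1 (edgeR adjusted p = 0.000148). GALC was at 77.8, 87.2 and 64.2 against 38.0, 50.2 and 26.6 (log2 fold change -0.98 ± 0.25, edgeR adjusted p = 0.0153), at counts that give a wide error. ULK1 was at 1676, 1789 and 1604 against 1104, 1177 and 1080 (log2 fold change -0.58 ± 0.07, edgeR adjusted p = 0.000339). These 3 genes were lower in each FOXA1 siRNA sample than in any NT siRNA sample. GABARAPL1 fell by 0.42 ± 0.1 on the log2 scale, NPC2 by 0.4 ± 0.07, GUSB by 0.32 ± 0.05, MAN2B1 by 0.31 ± 0.09, TFE3 by 0.17 ± 0.06 and CLN3 by 0.17 ± 0.05. In this comparison SQSTM1 (10540 ± 518 and 10560 ± 504), CTSA (11770 ± 524 and 11840 ± 533) and BNIP3 (1521 ± 14.4 and 1564 ± 46.9), which lapatinib raised, did not pass the test.

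**Figure D4:**
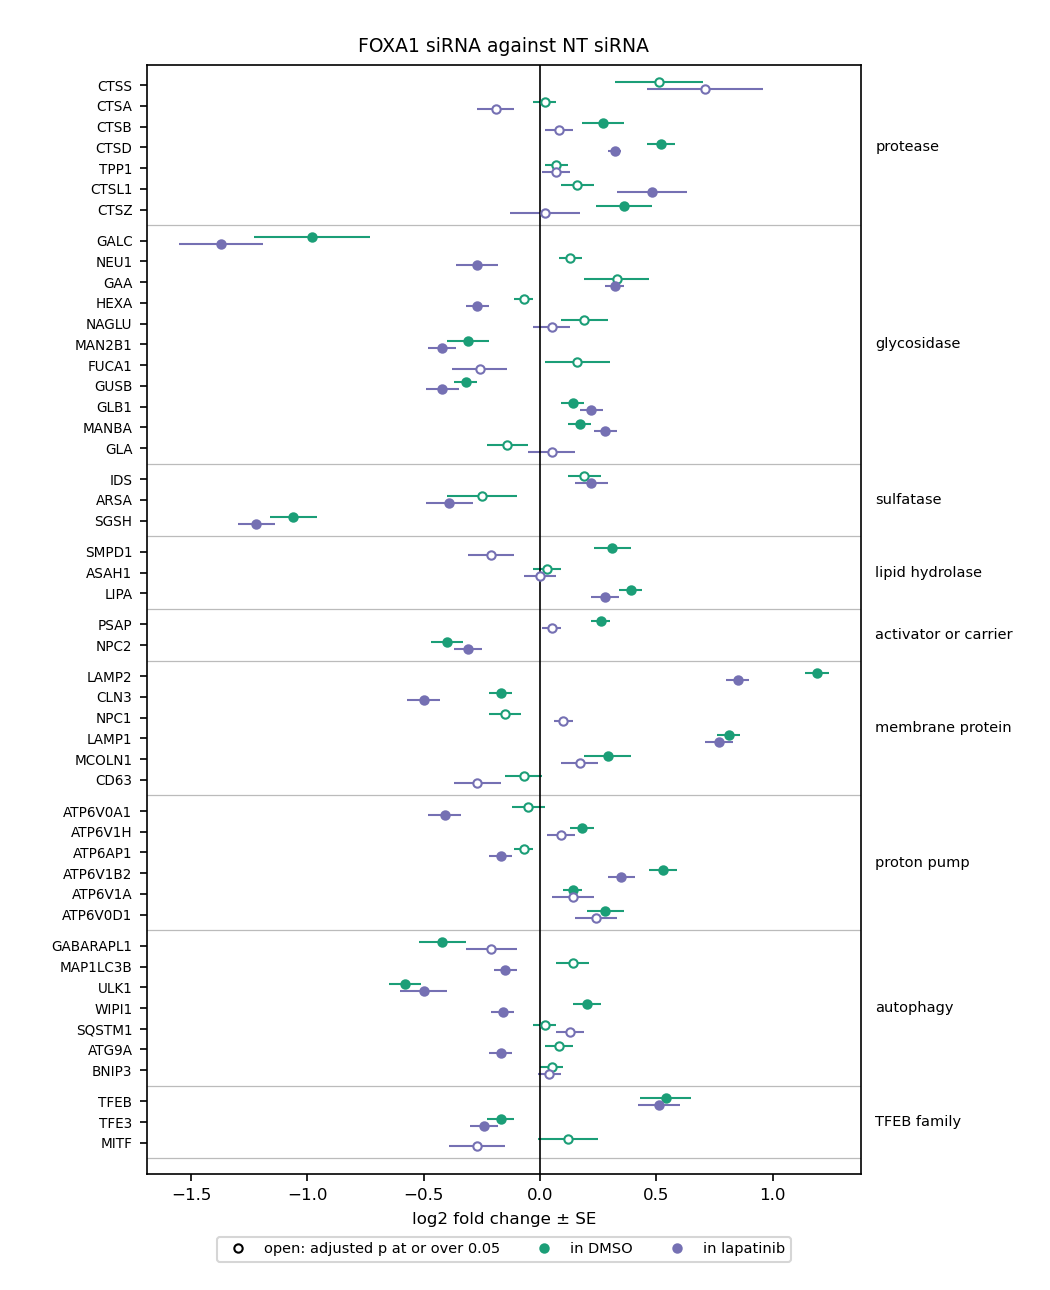
Log2 fold change of FOXA1 siRNA against NT siRNA (± SE, 3 samples against 3) for each member by role, in DMSO (green) and in lapatinib (purple). Open points did not reach an adjusted p under 0.05. LAMP2 and LAMP1 lie farthest to the right, at 1.19 and 0.81 in DMSO, and SGSH and GALC farthest to the left, at -1.06 and -0.98.

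In lapatinib, FOXA1 siRNA raised 11 members (22.9%) and lowered 16 (33.3%), while it raised 22.7% and lowered 22.2% of the 13727 genes tested. The median log2 fold change was 0.03, against -0.01 over all genes. By at least 1 on the log2 scale none rose and 2 fell, against 4.51% and 3.9% of all genes, and with the replicate block 17 rose and 22 fell, against 30.6% and 31.1%. Leaving out 1 sample at a time gave 9 to 13 raised and 11 to 16 lowered members. LAMP2 was at 5551, 6002 and 5497 with NT siRNA and at 10350, 10330 and 10320 with FOXA1 siRNA (log2 fold change 0.85 ± 0.05, edgeR adjusted p = 9.15e-06), and LAMP1 at 8947, 9239 and 9185 against 16010, 14250 and 16770 (log2 fold change 0.77 ± 0.06, edgeR adjusted p = 4.48e-05). CTSL1 was 0.48 ± 0.15 higher on the log2 scale, ATP6V1B2 0.35 ± 0.06, CTSD 0.32 ± 0.03, GAA 0.32 ± 0.04, LIPA 0.28 ± 0.06, MANBA 0.28 ± 0.05, and GLB1 and IDS 0.22 each. The call of CTSL1 (edgeR adjusted p = 0.0342) passed in 2 of 6 leave-one-out fits. CSF1R rose here too, from 214 ± 44.4 to 423 ± 37.1, and the 5 leukocyte and macrophage markers summed to 191 to 279 with NT siRNA and 399 to 469 with FOXA1 siRNA, with PTPRC at most 5.17. CD14, at most 11.3 in these 6 samples, also passed the test (edgeR adjusted p = 0.0403). The part of these markers in the values of the members was not tested.

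Of the 24 hydrolases, 7 fell and 7 rose with FOXA1 siRNA in lapatinib (29.2% each), against 22.2% and 22.7% of all genes. Of the 7 autophagy genes 4 fell and none rose. GALC was at 165, 163 and 189 with NT siRNA and at 78.5, 50.9 and 71.6 with FOXA1 siRNA (log2 fold change -1.37 ± 0.18, edgeR adjusted p = 0.000466). SGSH was at 2759, 2781 and 2908 against 1138, 1367 and 1137 (log2 fold change -1.22 ± 0.08, edgeR adjusted p = 1.68e-05). For both genes no sample overlapped. CLN3 fell by 0.5 ± 0.07 on the log2 scale, ULK1 by 0.5 ± 0.1, GUSB and MAN2B1 by 0.42 each, ATP6V0A1 by 0.41 ± 0.07, ARSA by 0.39 ± 0.1, NPC2 by 0.31 ± 0.06, HEXA and NEU1 by 0.27 each, TFE3 by 0.24 ± 0.06, ATG9A and ATP6AP1 by 0.17 each, WIPI1 by 0.16 ± 0.05 and MAP1LC3B by 0.15 ± 0.05. WIPI1 thus rose with FOXA1 siRNA in DMSO and fell with it in lapatinib, both by small amounts, and the first call was kept in 1 and the second in 2 of 6 leave-one-out fits. The edgeR adjusted p of WIPI1 was 0.0208 in DMSO, and up to 0.0829 without NT siRNA DMSO replicate 1, and 0.04 in lapatinib, and up to 0.128 without FOXA1 siRNA lapatinib replicate 3. The 2 siRNA comparisons and the 2 drug comparisons share samples, so their values are set side by side and not related to each other.

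**Figure D5:**
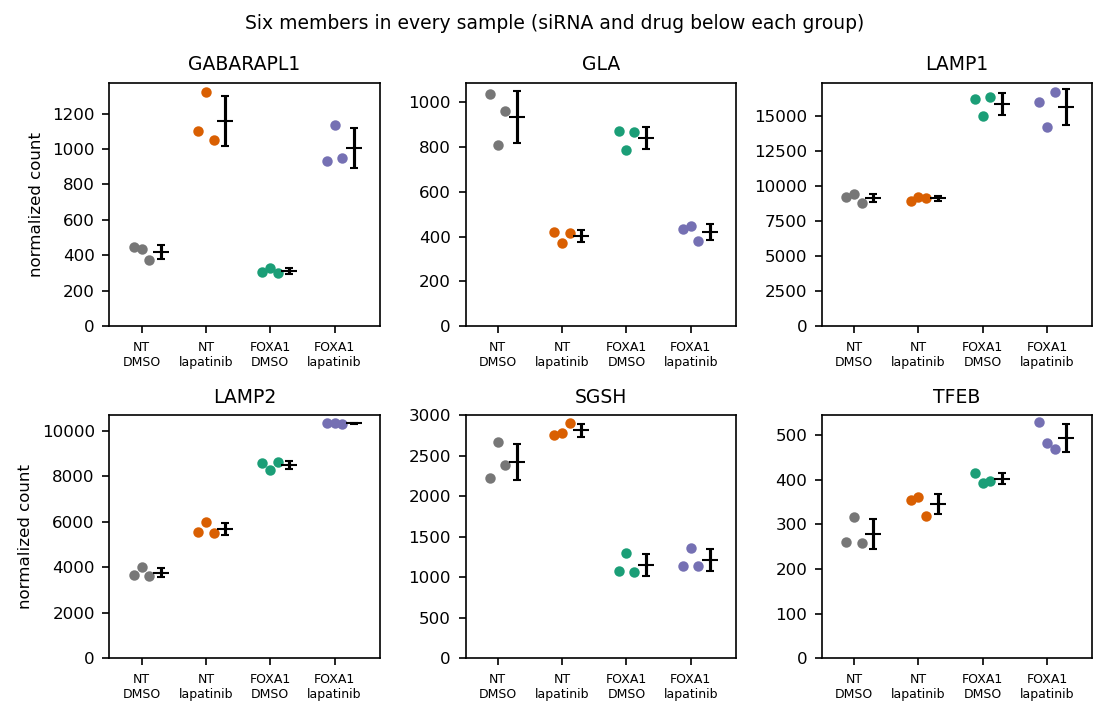
Normalized counts of 6 members in each of the 12 samples, by siRNA (NT or FOXA1) and drug, with the mean ± SD of 3 samples to the right of each group and axes that start at 0. GABARAPL1 and GLA separate by drug, LAMP1 and SGSH by siRNA, and LAMP2 and TFEB step up with both.

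Within the TFEB family, FOXA1 siRNA raised TFEB and lowered TFE3. TFEB was at 261, 317 and 258 with NT siRNA and DMSO and at 355, 361 and 319 with NT siRNA and lapatinib, which left no overlap but a small gap (log2 fold change 0.33 ± 0.12, edgeR adjusted p = 0.0389). This call was lost without NT siRNA DMSO replicate 1 or 3 (edgeR adjusted p = 0.131 and 0.146) and without NT siRNA lapatinib replicate 1 or 2 (edgeR adjusted p = 0.107 and 0.085). With FOXA1 siRNA, TFEB was at 416, 393 and 397 in DMSO and at 530, 481 and 469 in lapatinib. Each of these 6 samples exceeded all 6 with NT siRNA, and FOXA1 siRNA raised TFEB by 0.54 ± 0.11 on the log2 scale in DMSO (edgeR adjusted p = 0.00436) and by 0.51 ± 0.09 in lapatinib (edgeR adjusted p = 0.00228). Lapatinib raised it by 0.30 ± 0.08 with FOXA1 siRNA, and the interaction was -0.01 ± 0.13.

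TFE3 was the most abundant of the 3 at 21.3 ± 0.329 TPM with NT siRNA and DMSO. It was at 1182, 1136 and 1134 normalized counts in DMSO and at 1147, 1168 and 1084 in lapatinib with NT siRNA, and at 1058, 1020 and 972 and 1005, 968 and 914 with FOXA1 siRNA. The drug groups overlapped with both siRNAs, with log2 fold changes of 0.00 ± 0.06 and -0.07 ± 0.06. FOXA1 siRNA lowered TFE3 by 0.17 ± 0.06 in DMSO (edgeR adjusted p = 0.0451), a call lost in all 6 leave-one-out fits (up to 0.149 without FOXA1 siRNA DMSO replicate 3), and by 0.24 ± 0.06 in lapatinib (edgeR adjusted p = 0.0141, and 0.0588 without FOXA1 siRNA lapatinib replicate 3). MITF, best known from melanocytes, was at 232, 201 and 221 in DMSO and at 222, 192 and 215 in lapatinib with NT siRNA (log2 fold change -0.04 ± 0.11). With FOXA1 siRNA it was at 252, 195 and 259 in DMSO and at 193, 155 and 177 in lapatinib, a decrease of 0.42 ± 0.14 on the log2 scale (edgeR adjusted p = 0.0341, and up to 0.113 without FOXA1 siRNA DMSO replicate 3).

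Other genes of the pathway were taken from lists of 153 symbols, of which 145 were tested for lapatinib with NT siRNA. Of these, 69 (47.6%) were raised and 30 (20.7%) lowered, with a median log2 fold change of 0.2, against 30.5% raised, 29.2% lowered and a median of 0.03 over all 13713 genes tested. Autophagy receptors and fusion factors were the list with the highest share, as 10 of 13 were raised and none lowered, among them the cargo receptor NBR1 (1.52 ± 0.05 on the log2 scale) and the mitophagy receptor BNIP3L (0.98 ± 0.13). Of 32 other autophagy genes 15 were raised and 7 lowered, with ATG9B (1.60 ± 0.3) and the ULK1 partner RB1CC1 (1.23 ± 0.06) highest, and ULK2 (-0.55 ± 0.2) and the protease ATG4A (-0.39 ± 0.14) lowest. Both lowered calls were weak, at edgeR adjusted p = 0.0389 and 0.043. Of 28 other hydrolases 12 were raised and 5 lowered, a mixed picture next to the 21 of 24 among the members. Cathepsins CTSO (2.08 ± 0.14) and CTSK (1.60 ± 0.35) rose most, and the sulfatase ARSB (-0.99 ± 0.19) and the fucosidase FUCA2 (-0.44 ± 0.05) fell most. CTSK had few counts, at 10.8, 10.9 and 26.8 in DMSO and at 45.2, 54.7 and 46.2 in lapatinib.

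Of 17 other pump subunits 8 were raised and 3 lowered. The largest increases were those of ATP6V1B1 (2.06 ± 0.16) and ATP6V0A4 (1.67 ± 0.12), isoforms best known from acid-secreting epithelial cells, and ATP6V0E2 (-0.50 ± 0.12) and ATP6V0B (-0.34 ± 0.06) fell. Of 18 other membrane proteins 9 were raised and 5 lowered, with CD68 (0.89 ± 0.19) and LAPTM4A (0.67 ± 0.05) up, and the amino acid transporter SLC36A1 (-0.71 ± 0.14) and LAPTM4B (-0.68 ± 0.06) down. Of 10 genes that sort or activate hydrolases 5 were raised, among them the sulfatase-activating enzyme SUMF1 (0.64 ± 0.07) and the sorting receptor SORT1 (0.43 ± 0.07), and 3 were lowered, among them GNPTAB (-0.39 ± 0.09), which tags hydrolases with mannose phosphate, and the receptor for that tag, M6PR (-0.29 ± 0.05). Of 27 nutrient sensing genes 10 were raised (37.0%) and 7 lowered (25.9%), near the 30.5% and 29.2% over all genes. The rule named ZKSCAN3 (0.97 ± 0.2), described as a repressor of lysosomal genes, and the mTORC1 inhibitor TSC1 (0.94 ± 0.07) among those raised, and the folliculin partner FNIP2 (-0.63 ± 0.1) and the TSC subunit TBC1D7 (-0.54 ± 0.08) among those lowered.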

How the data were processed

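RNA from SKBR-3 cells was measured by polyA RNAseq in 12 samples, 4 groups of 3. For each sample the authors quantified reads per gene and deposited the expected count, an estimate of reads per gene with no scaling, and TPM, which is scaled by transcript length and depth. The deposited FPKM values, scaled by the authors by length and depth, and the deposited signal, the count divided by the authors by its library's upper quartile, were not analysed. RSEM, R 3.2.2 and DESeq2 1.12.3 are named in the submitters' processing notes, and the methods name STAR alignment to hg38 and Salmon; whether strand was used in counting is not given in the sources used here. Expected counts (87.5 to 88.1% of them whole) were rounded. The 29 rows without a symbol held at most 0.0459% of a library's counts. They are in no gene list but stayed in the library totals and, where they passed the count filter, among all genes tested. TPM as deposited was used for levels between genes and for shares, without tests.

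Genes with at least 10 counts in 1 fitted sample were tested with edgeR 4.0.16 in R 4.3.3 (TMM scaling, quasi-likelihood test, Benjamini-Hochberg adjustment over all genes tested), each comparison on its own 6 samples and the interaction on all 12. Normalized counts are scaled to the average library of 30455332 counts, and the SE of a log2 fold change is its size divided by the square root of F. An exact permutation test of 3 against 3 cannot go below p = 0.1. On simulated data with 200 changed genes, the fit for lapatinib with NT siRNA recovered 63% of changes of log2 0.5 and 97.5% of log2 1 over 13713 genes. The interaction recovered 37% and 90.5% over 14012. The changed genes were drawn only from those above a minimum mean count and were fewer than the genes called in the real data. No pairing of replicates was simulated, so these rates need not hold for the real data. Total counts of this size limit precision mainly for members with few counts, such as GALC and CTSS.

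The members and gene lists were chosen with earlier results of these data known. Every member is accounted for, and in each comparison up to 2 members per role and direction with the largest called change, up to 6 called in the interaction, and up to 2 genes per wider list and direction for lapatinib with NT siRNA, are given with values. Alternatives were RLE and upper-quartile scaling, DESeq2 1.42.0, other count filters, all 12 samples in one model, a replicate block, stricter call rules, leaving out each sample, and shares of counts in place of TPM. The leave-one-out fits had no replicate block. The replicate numbers in the labels were taken to pair samples: deviations from group means over 12170 genes correlated at 0.241 to 0.624 (mean 0.39) in all 18 pairs of samples with the same number, and at -0.456 to 0.196 in the 36 with different numbers. Promoter windows are from RefSeq (GRCh38.p14).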

Additional observations from a re-analysis of the deposited data

Results flagged for a closer look

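For 4 members the response to lapatinib differed between the siRNAs by the test of the difference itself, the edgeR interaction over all 12 samples. On the log2 scale the response with FOXA1 siRNA minus that with NT siRNA was -0.31 for LAMP2, -0.34 for WIPI1, -0.19 for PSAP and -0.50 for SMPD1. LAMP2 passed in all 12 leave-one-out fits, WIPI1 in 10, and PSAP and SMPD1 in 2 each.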

How the results depend on the processing

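The counts of members called depended most on the call rule and on the replicate block. With a minimum size of 1 for the log2 fold change, lapatinib raised 5 members with NT siRNA and raised 3 and lowered 0 with FOXA1 siRNA, FOXA1 siRNA raised 1 and lowered 1 in DMSO and raised 0 and lowered 2 in lapatinib, and the interaction lowered 0. At an adjusted p under 0.01, FOXA1 siRNA raised 7 and lowered 4 in DMSO and lowered 9 in lapatinib, and the interaction lowered 0. With the replicate block, lapatinib with NT siRNA lowered 4 members, FOXA1 siRNA in lapatinib raised 17, and the interaction had 3 higher and 16 lower. The block lost no call of a member and added 3 for lapatinib with NT siRNA, 5 with FOXA1 siRNA, 10 for FOXA1 siRNA in DMSO, 12 in lapatinib and 15 for the interaction. Members lowered by lapatinib with NT siRNA numbered 2 with RLE scaling, 2 with no filter on low counts, 3 with all 12 samples in one model and 4 with DESeq2, and DESeq2 gave 8 members lower in the interaction. The cause of these differences was not tested.

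Leaving out single samples gave 30 to 35 raised and 1 to 3 lowered members for lapatinib with NT siRNA, 30 to 32 and 5 to 7 with FOXA1 siRNA, 8 to 20 and 6 to 10 for FOXA1 siRNA in DMSO, 9 to 13 and 11 to 16 in lapatinib, and 0 to 1 and 1 to 7 for the interaction. Changes of sign were seen for uncalled values near 0: the interaction of TFEB ranged from -0.11 to 0.04, and lapatinib with NT siRNA from -0.11 to 0.03 for MITF and from -0.03 to 0.03 for TFE3. As a share of counts in place of TPM, the log2 ratio for FOXA1 siRNA in lapatinib was 0.15 over all members. Members with few counts, GALC and CTSS above all, have the widest errors.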

Other observations

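The wider lists of lysosome, autophagy and nutrient sensing genes were also tested for FOXA1 siRNA. In DMSO it raised 47 and lowered 29 of the 144 genes tested (32.6% and 20.1%), against 21.9% and 21.3% over all genes. In lapatinib it raised 32 and lowered 40 of 145 (22.1% and 27.6%), against 22.7% and 22.2% over all genes. Other lysosomal membrane proteins had the highest share raised in DMSO, at 9 of 18 with 1 lowered and a median log2 fold change of 0.36, beside the rise of LAMP1 and LAMP2. Other hydrolases were split, with 7 of 28 raised and 9 lowered and a median of -0.14. Other pump subunits had 4 of 17 raised and 3 lowered in DMSO and a median of 0.05. In lapatinib, other autophagy genes had 6 of 32 raised and 12 lowered, and other pump subunits 2 of 17 raised and 6 lowered. The list of autophagy receptors and fusion factors, of which lapatinib raised 10 of 13 with NT siRNA, had 10 of 13 raised by lapatinib with FOXA1 siRNA too, and none lowered.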
